A study of Mus musculus with 8 samples.

Results

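The antioxidant and Nrf2 response genes described here were a set of 37 genes chosen by symbol: the Nrf2 factor and its inhibitor, and genes of glutathione, the thioredoxin and peroxiredoxin systems, superoxide dismutases, metallothioneins, glutathione transferases and xanthine dehydrogenase. The rule used gene symbols and no measured value, but the list was drawn up with earlier results of these data known. Of these, 34 had a probe on the array, among 10427 named genes that were tested, and Gsr, Prdx5 and Prdx6 were not analysed here. The 34 genes were read by 55 probes. Of these probes, 51 were detected on all 8 arrays and were tested, and 4 probes of Nfe2l2, Nqo1 and Txn1 were not tested because they were detected on 0 or 1 arrays.

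Gene expression was measured in whole brainstem of 4 Vglut2:Ndufs4cKO mice (hereafter cKO) at a late disease stage and 4 Vglut2:Ndufs4cCT littermates (cCT). There was 1 Illumina MouseRef-8 v2 array per mouse. The cKO mice carried a codon-improved Cre under the Slc17a6 promoter on a BAC transgene, 1 Ndufs4 allele deleted in every cell and 1 floxed allele that Cre deletes in glutamatergic neurons that express Vglut2. The cCT mice carried the same Cre with 1 floxed and 1 wild-type allele, and both groups were on a C57BL/6J background. Ndufs4 encodes a subunit of mitochondrial complex I, and the comparison asked how the brainstem transcriptome differed once the gene was lost from these neurons.

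Nrf2, encoded by Nfe2l2, is held in the cytoplasm and sent for degradation by Keap1. Oxidants and electrophiles modify cysteines of Keap1, Nrf2 then accumulates, and with small Maf proteins it binds antioxidant response elements near genes for glutathione synthesis, quinone reduction and the thioredoxin system. Metallothioneins bind zinc and copper. Of these, Mt1 and Mt2 answer to metals and glucocorticoids, among other signals, and in brain are made largely by astrocytes.

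The arrays showed 14720 to 15042 detected probes in cKO mice and 14293 to 14723 in cCT mice, and a tested probe of these genes was read from 16 to 60 beads per array (median 36). Of 4 probes for Ndufs4, 1 was lower in cKO than in cCT mice (log2 fold change -1.41, adjusted p = 0.0228 from limma) and 3 did not pass. Hindbrain Hox genes were detected for 5 of 6 members, and of the neuronal markers all but Snap25. All cCT arrays lay at 1 end of the beadchip and all cKO arrays at the other, and the effects of position and group cannot be told apart. In bulk tissue, fewer cells of a type and less RNA per cell cannot be told apart.

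Expression of most of these genes was close between the groups. With each gene read from its brightest tested probe and limma's test adjusted over all tested probes, 1 of 34 genes, Xdh, was higher in cKO mice, 0 were lower and 33 did not pass. The same test called 0.777% of all 10427 genes as higher and 0.0288% as lower. Before adjustment, at p under 0.05, 3 of the 34 were higher (Xdh, Gpx3 and Mt2) and 0 lower, beside 7.19% and 3.02% of all genes. In 2 genes, Xdh and Gpx3, every cKO array lay above every cCT array, in 0 every one lay below, and the background for this was 4.29% above and 2.03% below.

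The size of the differences that these arrays could have missed is given by their intervals. Of the 33 genes that did not pass, the 95% interval of the fold change lay within 1.5-fold either way for 21 and within 2-fold for 31. The interval reached 1.5-fold higher in cKO mice for 10 genes and 1.5-fold lower for 2, and it reached 2-fold higher for Mt2 and Mt3. The median log2 fold change of the 34 genes was 0.06, beside 0.02 over all tested genes, and 23 of 34 (67.6%) lay above 0, beside 53.4% of all genes. Fold changes are on the scale of log2(signal + 16), which understates the change of dim probes.

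**Figure D1:**
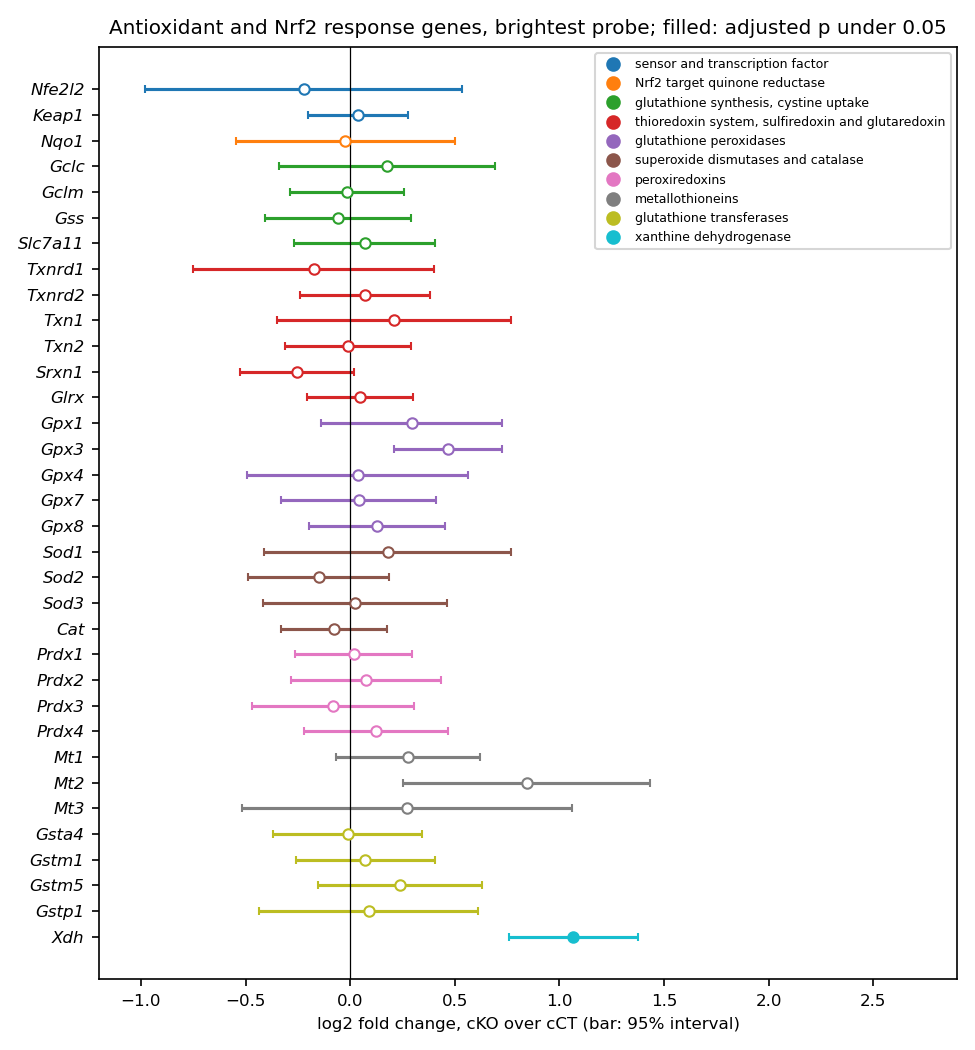
Log2 fold change of each of the 34 measured genes, cKO over cCT (horizontal axis), for the brightest tested probe, with the 95% interval as a bar and colour for the gene's role; filled points passed at an adjusted p under 0.05. Only Xdh is filled, at 1.07, and the other points lie between -0.26 and 0.84.

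Xdh was the member that rose. It encodes xanthine dehydrogenase, which converts hypoxanthine to xanthine and xanthine to uric acid at the end of purine breakdown, and whose oxidase form passes electrons to oxygen and so makes superoxide and hydrogen peroxide. Its log2 signal (probe ILMN_1239055) was 9.16, 9.14, 9.28 and 9.44 in cKO replicates 1 to 4, against 8.47, 8.15, 8.15 and 7.99 in cCT replicates 1 to 4. All cKO values lay above all cCT values, and the gap between the nearest arrays was larger than the range within either group. The means were 9.26 ± 0.14 in cKO mice and 8.19 ± 0.20 in cCT mice (SD, 4 arrays each), and the log2 fold change was 1.07 (SE 0.14, 95% interval 0.76 to 1.37), or 2.09-fold. The adjusted p was 0.0123 from limma, and the two-sided exact permutation p was 0.0286, the smallest that 4 arrays against 4 allow. Without cCT replicate 3 the log2 fold change was 1.05 and the call was lost (adjusted p = 0.0524 from limma, in a range of 0.00489 to 0.116 over all alternatives).

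Part of the glial markers also differed between the groups. The summed signal of 5 detected microglia and macrophage markers was 4452 to 8542 in cKO mice and 2973 to 3322 in cCT mice, and 1 of the 5 passed as higher. For 8 markers of reactive astrocytes the sum was 13419 to 24850 in cKO mice and 5873 to 8142 in cCT mice, and 3 of the 8 passed as higher. Neither sum overlapped between the groups (two-sided exact permutation p = 0.0286 for each), and Itgam was the marker of these lists whose probe was not detected, while Csf1r and Cd68 were not analysed here. The sum of 4 endothelial markers, of cells in which Xdh is known to be expressed, was 11018 to 13280 in cKO mice and 11325 to 12510 in cCT mice, 0 of 4 passed, and Kdr was not detected. The sum of 7 astrocyte markers was 99661 to 113974 in cKO mice and 98778 to 109695 in cCT mice, and 0 of 7 passed. For 5 oligodendrocyte markers it was 116369 to 140519 in cKO mice and 115575 to 152525 in cCT mice, and 0 of 5 passed. Among the cKO arrays, replicate 4 had the highest Xdh signal, the highest reactive astrocyte sum and the lowest microglia and macrophage sum. It also had the highest cKO sums for astrocyte, neuron, oligodendrocyte and choroid plexus markers, and the lowest for endothelial and neutrophil markers. This 1 array therefore does not single out a cell type. The part of glia or endothelium in the Xdh result was not tested.

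Nfe2l2 was variable within both groups. Its log2 signal (ILMN_1224128) was 7.04, 6.29, 6.39 and 7.69 in cKO replicates 1 to 4, against 6.70, 7.20, 7.70 and 6.69 in cCT replicates 1 to 4. The groups overlapped, although cKO replicates 2 and 3 lay below all cCT arrays, and the log2 fold change was -0.22 (SE 0.34, 95% interval -0.98 to 0.54, adjusted p = 0.866 from limma). A change of the Nfe2l2 transcript of up to 1.45-fold higher or down to 0.51-fold therefore lay within the interval. Nrf2 is controlled mainly through its protein, which these arrays do not measure.

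Keap1, the adaptor that brings Nrf2 to a Cul3 ubiquitin ligase, had the smallest standard error of the 34 genes. Its log2 signal was 11.20, 11.20, 11.07 and 11.11 in cKO replicates 1 to 4, against 11.14, 11.03, 11.05 and 11.21 in cCT replicates 1 to 4 (ILMN_1258406, log2 fold change 0.04, SE 0.11, adjusted p = 0.935 from limma). The other 3 probes of Keap1 gave 0.06, 0.19 and 0.16, with the same sign and with no call.

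Nqo1 encodes the quinone reductase whose transcript is widely used as a readout of Nrf2 activity. Its log2 signal (ILMN_2726371) was 7.46, 7.32, 7.09 and 8.06 in cKO replicates 1 to 4, against 7.13, 7.77, 7.79 and 7.33 in cCT replicates 1 to 4. The groups overlapped, and the log2 fold change was -0.02 (SE 0.23, 95% interval -0.55 to 0.50, adjusted p = 0.986 from limma). The highest cKO array for Nqo1, replicate 4, was also the highest for Nfe2l2 and for Mt2. Sod3 (7.43) and Txnrd1 (7.26), also dim, had their highest cKO value there too, while dim Gclc had it on replicate 1 (7.51). The shared rise is thus not particular to Nrf2 and Nqo1, and its cause was not tested.

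In glutathione synthesis, 0 of 4 measured members passed. Slc7a11, the light chain of the cystine and glutamate exchanger that supplies cysteine, had a log2 signal of 10.17, 10.17, 9.91 and 9.83 in cKO replicates 1 to 4, against 10.23, 10.02, 9.82 and 9.73 in cCT replicates 1 to 4. Each group spanned nearly the same values, with a log2 fold change of 0.07 (SE 0.15, adjusted p = 0.914 from limma). The catalytic subunit of glutamate-cysteine ligase, Gclc, had a log2 fold change of 0.18 (95% interval -0.34 to 0.69), and its modifier subunit, Gclm, had -0.02 (95% interval -0.29 to 0.25). Gss, glutathione synthetase, was read by 3 probes that did not have the same sign: the brightest gave -0.06, and the others 0.26 and -0.35, with no call.

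The thioredoxin system keeps protein thiols and peroxiredoxins reduced, and 0 of its 6 members passed. Srxn1, sulfiredoxin, which reactivates overoxidized peroxiredoxins and is a known target of Nrf2, had the lowest fold change of all 34 genes. Its log2 signal (ILMN_2677772) was 11.39, 11.39, 11.34 and 11.43 in cKO replicates 1 to 4, against 11.76, 11.39, 11.63 and 11.78 in cCT replicates 1 to 4. The cKO arrays lay close together, and 1 cCT array, replicate 2, reached down to them. The log2 fold change was -0.26 (SE 0.12, 95% interval -0.53 to 0.02, adjusted p = 0.541 from limma, two-sided exact permutation p = 0.0571), and the other 2 probes of Srxn1 gave -0.20 and -0.07, also without a call.

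The reductases and thioredoxins themselves differed less than their spread. Txnrd1, the cytosolic thioredoxin reductase, had a log2 fold change of -0.18 (95% interval -0.75 to 0.40), and Txnrd2, the mitochondrial one, 0.07 (95% interval -0.24 to 0.38). For cytosolic thioredoxin, Txn1, the value was 0.21 (95% interval -0.35 to 0.77), and for mitochondrial thioredoxin, Txn2, it was -0.01 (95% interval -0.31 to 0.29). Glrx, a glutaredoxin that removes glutathione from protein thiols, had 0.05 (95% interval -0.21 to 0.30). Both mitochondrial members thus had an interval that stayed within 1.5-fold either way.

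The glutathione peroxidases, which use glutathione to reduce peroxides, had 5 measured members with a log2 fold change above 0, of which 0 passed. Gpx3, the secreted plasma form, had a log2 signal of 11.03, 11.16, 10.87 and 11.03 in cKO replicates 1 to 4, against 10.66, 10.44, 10.54 and 10.58 in cCT replicates 1 to 4 (ILMN_2715546). All cKO arrays lay above all cCT arrays, by a smaller step than for Xdh. The means were 11.02 ± 0.12 in cKO mice and 10.55 ± 0.09 in cCT mice (SD, 4 arrays each), and the log2 fold change was 0.47 (SE 0.11, 95% interval 0.21 to 0.72), or 1.38-fold. The two-sided exact permutation p was 0.0286, and the adjusted p of 0.151 from limma missed the threshold, as it did under every alternative that kept the adjustment (0.0563 to 0.511).

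Gpx1, the abundant cytosolic peroxidase, had a log2 signal of 14.31, 14.32, 14.57 and 13.74 in cKO replicates 1 to 4, against 14.05, 13.60, 14.07 and 14.04 in cCT replicates 1 to 4. Replicates 1 to 3 of the cKO mice lay above all cCT mice and cKO replicate 4 below 3 of them, and the log2 fold change was 0.29 (SE 0.19, adjusted p = 0.661 from limma). Gpx4, which reduces lipid hydroperoxides in membranes, had 0.04 (95% interval -0.49 to 0.56). The endoplasmic reticulum members Gpx7 and Gpx8 had 0.04 and 0.13.

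Superoxide dismutases turn superoxide into hydrogen peroxide, which catalase breaks down, and 0 of these 4 genes passed. The cytosolic copper and zinc enzyme, Sod1, had a log2 signal of 13.93, 14.27, 14.35 and 13.33 in cKO replicates 1 to 4, against 14.15, 13.33, 13.60 and 14.08 in cCT replicates 1 to 4. Both groups spanned more than a 1.5-fold range and overlapped, and the log2 fold change was 0.18 (SE 0.26, 95% interval -0.41 to 0.77, adjusted p = 0.859 from limma). Sod2, the manganese enzyme of the mitochondrial matrix, where complex I can release superoxide, had 13.03, 13.13, 13.31 and 12.98 in cKO replicates 1 to 4, against 13.57, 12.98, 13.19 and 13.30 in cCT replicates 1 to 4. The groups overlapped, with a log2 fold change of -0.15 (SE 0.15, 95% interval -0.49 to 0.19, adjusted p = 0.775 from limma). The extracellular enzyme, Sod3, had a log2 fold change of 0.02, and catalase, Cat, had -0.08 (95% interval -0.33 to 0.18).

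The peroxiredoxins, thiol peroxidases that thioredoxin recycles, lay close to 0 in all 4 measured members, between -0.08 and 0.12, with 95% intervals from -0.47 to 0.47 at their widest. Prdx1 had a log2 fold change of 0.02 and Prdx2, which is plentiful in neurons and red blood cells, 0.08, with 0.25 and -0.01 from its other 2 probes. Prdx3, the mitochondrial member, had -0.08 (95% interval -0.47 to 0.31), and Prdx4, of the endoplasmic reticulum, had 0.12. The summed signal of 3 red blood cell markers was 21862 to 50679 in cKO mice and 34915 to 50359 in cCT mice, with 0 of 3 called.

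The metallothioneins Mt1, Mt2 and Mt3 had log2 fold changes above 0, and 0 of these 3 passed. Another metallothionein, Mt4, which belongs to the further pathway genes described last, had -0.63 (SE 0.22, adjusted p = 0.370 from limma) at a dim signal, with overlap between the groups. Mt2 had a log2 signal of 8.56, 9.19, 9.19 and 9.50 in cKO replicates 1 to 4, against 8.56, 8.34, 7.59 and 8.58 in cCT replicates 1 to 4 (ILMN_1219154). The cKO arrays lay above the cCT arrays except replicate 1, which lay among them, and cCT replicate 3 was far below the rest. The means were 9.11 ± 0.39 in cKO mice and 8.27 ± 0.47 in cCT mice (SD, 4 arrays each), and the log2 fold change was 0.84 (SE 0.26, 95% interval 0.25 to 1.43), or 1.79-fold. The adjusted p was 0.293 from limma and the two-sided exact permutation p was 0.0571. Without cCT replicate 3 the log2 fold change of Mt2 was 0.62.

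Mt1 had a log2 signal of 15.82, 16.05, 16.002 and 16.20 in cKO replicates 1 to 4, against 15.92, 15.71, 15.40 and 15.93 in cCT replicates 1 to 4. As for Mt2, the lowest cKO array was replicate 1, the highest replicate 4, and the lowest cCT array replicate 3. The log2 fold change was 0.28 (SE 0.15, 95% interval -0.07 to 0.62, adjusted p = 0.603 from limma). The unnormalized Mt1 signal stood at 82.7% to 99.1% of the highest signal on the array in cKO mice and at 59.9% to 99.9% in cCT mice, so on part of the arrays Mt1 lay near the top of the measured range.

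Mt3, the metallothionein found mainly in the nervous system, had the largest standard error of the 34 genes. Its log2 signal was 12.56, 13.35, 13.29 and 12.75 in cKO replicates 1 to 4, against 13.53, 12.13, 12.04 and 13.16 in cCT replicates 1 to 4. Of the cCT arrays, replicates 2 and 3 lay below all cKO arrays, replicate 1 above them and replicate 4 among them, and the log2 fold change was 0.27 (SE 0.35, 95% interval -0.52 to 1.06, adjusted p = 0.830 from limma). The reactive astrocyte sums given above moved with the groups, and their part in the metallothionein values was not tested.

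**Figure D2:**
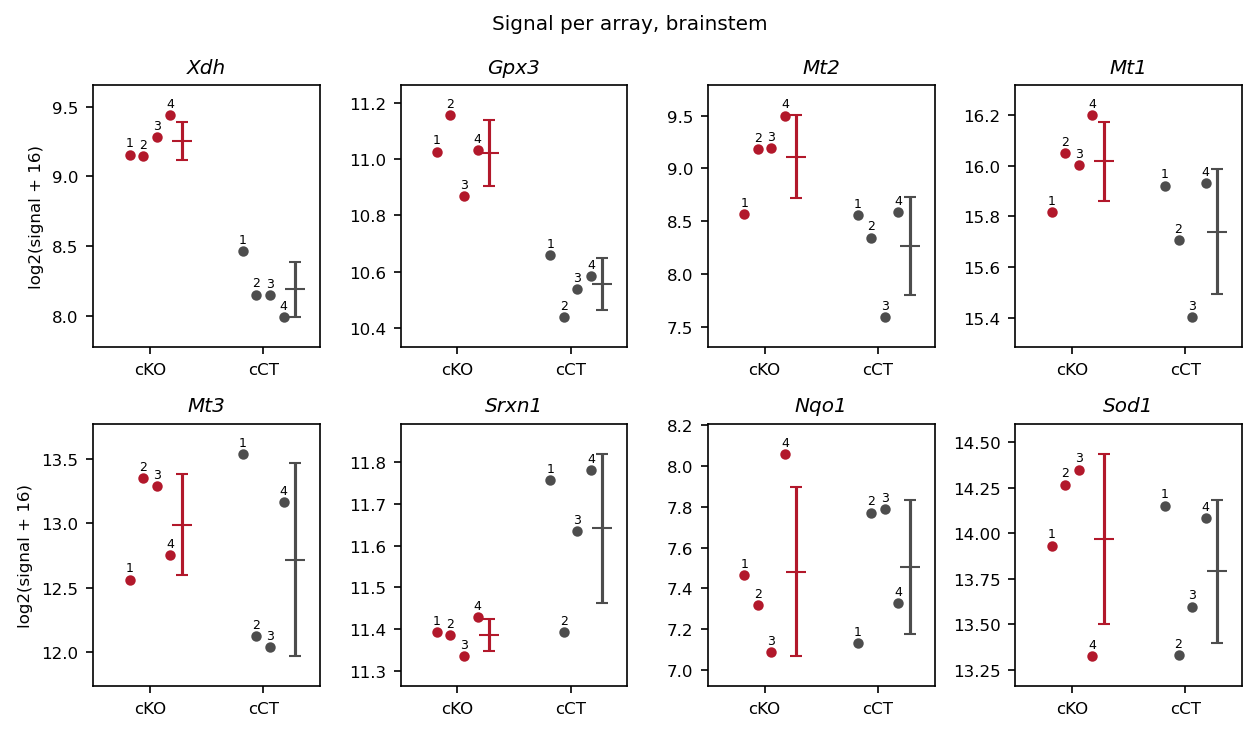
Log2(signal + 16) (vertical axis, a separate range in each panel) on each of the 8 arrays for Xdh, Gpx3, Mt2, Mt1, Mt3, Srxn1, Nqo1 and Sod1, with cKO arrays left and cCT arrays right, replicate numbers above the points, and the mean ± SD beside them. The groups do not overlap for Xdh and Gpx3, and Mt1, Mt2 and Mt3 have the same lowest array within each group.

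The promoters of Mt1 and Mt2 are shown because these transcripts had their lowest array in common in each group. Mt3 had the same lowest arrays, and its promoter is not printed. Also shown are the promoters of Gclm and Srxn1, which hold the antioxidant response element core. They were chosen after the values were seen. Of the 37 genes, 31 matched an entry in the RefSeq promoter table (GRCm38.p6, 250 bases before to 50 after the start), and Gclc, Gsr, Sod3, Prdx6, Gsta4 and Xdh did not. Sequences run 5′ to 3′ on the gene's strand, and capitals mark the metal response element core (TGCACNC or TGCGCNC) in Mt2 and Mt1 and the antioxidant response element core (TGACNNNGC) in Gclm and Srxn1, on either strand.
Mt2, chr8:94172368-94172667, plus strand: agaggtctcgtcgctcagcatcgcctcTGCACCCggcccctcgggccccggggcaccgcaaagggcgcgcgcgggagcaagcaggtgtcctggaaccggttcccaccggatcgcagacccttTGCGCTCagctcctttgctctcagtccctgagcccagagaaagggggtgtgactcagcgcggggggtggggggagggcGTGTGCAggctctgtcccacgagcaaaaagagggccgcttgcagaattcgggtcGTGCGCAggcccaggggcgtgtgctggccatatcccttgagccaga
Mt1, chr8:94178839-94179138, plus strand: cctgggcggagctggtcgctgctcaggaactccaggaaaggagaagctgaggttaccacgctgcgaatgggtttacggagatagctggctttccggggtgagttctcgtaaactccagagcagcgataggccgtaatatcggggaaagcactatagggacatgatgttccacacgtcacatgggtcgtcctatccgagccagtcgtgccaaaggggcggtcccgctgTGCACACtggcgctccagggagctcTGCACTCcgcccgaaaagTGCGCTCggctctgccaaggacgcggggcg
Gclm, chr3:122245307-122245606, plus strand: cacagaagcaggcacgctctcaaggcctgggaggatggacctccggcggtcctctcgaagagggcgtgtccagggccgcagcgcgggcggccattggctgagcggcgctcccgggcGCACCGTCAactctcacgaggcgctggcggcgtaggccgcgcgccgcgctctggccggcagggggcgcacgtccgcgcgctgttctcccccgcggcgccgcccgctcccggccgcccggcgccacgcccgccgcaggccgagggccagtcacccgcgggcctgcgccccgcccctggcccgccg
Srxn1, chr2:152105274-152105573, plus strand: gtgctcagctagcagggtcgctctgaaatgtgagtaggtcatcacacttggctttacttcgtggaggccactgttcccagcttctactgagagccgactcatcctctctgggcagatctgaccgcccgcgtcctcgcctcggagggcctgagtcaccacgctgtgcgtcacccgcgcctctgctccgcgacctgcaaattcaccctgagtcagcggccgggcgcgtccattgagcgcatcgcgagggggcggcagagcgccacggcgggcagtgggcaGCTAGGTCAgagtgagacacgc

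Mt2 held 4 metal response cores in this window and Mt1 held 3, of which the ones nearest upstream of the start began 50 bases before it in Mt2 and 23 bases before it in Mt1. In Gclm the single antioxidant response core began 134 bases before the start, and in Srxn1 it lay 28 bases after it. The 2 kinds of core did not divide these promoters. Gclm also held 3 metal response cores and Srxn1 held 1, while Mt2 also held 1 antioxidant response core, and these are not in capitals above. Searched on both strands, the antioxidant response core was in the promoters of 8 of 31 members (25.8%: Gclm, Gstm5, Mt2, Nfe2l2, Prdx1, Sod1, Srxn1 and Txnrd1), beside 14% of 27025 genes in the table and 12.4% of its promoters. The metal response core was in 11 of 31 (35.5%), beside 28.2% of genes, and the STAT site TTCNNNGAA in 5 of 31 (16.1%), beside 9.55% of genes. A match is a run of letters and not a measured binding site. Distances are from the annotated start, which need not be where transcription begins in brainstem, and cores outside the window were not counted. Among the 8 members with an antioxidant response core, 0 passed the test. The only member that passed, Xdh, had no promoter entry. This count would therefore be 0 for any motif, and it cannot relate the core to the test.

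The glutathione transferases, which join glutathione to electrophiles, had 4 measured members, and 0 passed. Gsta4, which acts on the lipid peroxidation product hydroxynonenal, had a log2 fold change of -0.01, and Gstm1 had 0.07 from its brightest probe and -0.27 from the other. For Gstm5 it was 0.24 (95% interval -0.15 to 0.63). Gstp1 gave 0.09 and 0.15 from its bright probes.

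A dim probe of Gstp1, ILMN_2793329, was the only further probe of any member whose groups did not overlap. Its log2 signal was 7.74, 7.94, 8.51 and 7.67 in cKO replicates 1 to 4, against 7.33, 7.56, 7.08 and 7.62 in cCT replicates 1 to 4. The lowest cKO and the highest cCT array lay almost together, and the log2 fold change of 0.57 (SE 0.21) had an adjusted p of 0.393 from limma. Probes of Gstp1 cannot be told apart from those of near-identical transferase genes without their sequences, which were not used here.

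Of the 34 genes, 10 were read by more than 1 tested probe. The probes of Gss, Prdx2 and Gstm1 differed in sign, those of the other 7 did not, and no probe other than the Xdh probe passed the test.

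**Figure D3:**
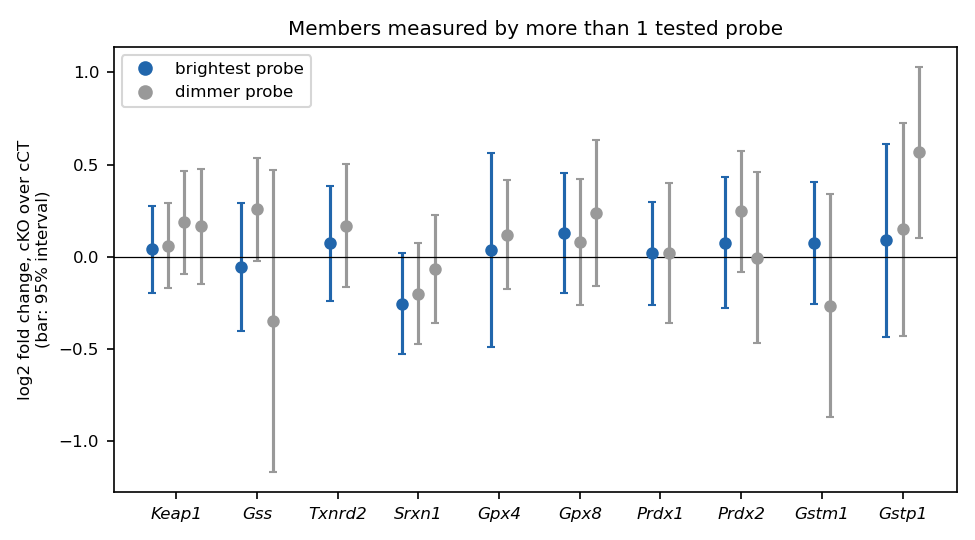
Log2 fold change, cKO over cCT (vertical axis), of every tested probe of the 10 genes with more than 1 tested probe, with 95% intervals; blue marks the brightest probe and grey the dimmer ones. All intervals include 0 except that of the dimmest Gstp1 probe, at 0.57, and those of Gss span -0.35 to 0.26 in their points.

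The arrays differed in ways that crossed the groups. On cKO replicate 4, 8 of the 34 genes had their value farthest from the gene's mean over all arrays, against 2 to 6 on each other array. The bright members Sod1, Gpx1, Gpx4, Gstp1 and Prdx2 were lower on cKO replicate 4 than on the other cKO arrays. Xdh, Mt2, Nfe2l2, Nqo1, Sod3, Txnrd1, Txnrd2 and Srxn1 had their highest cKO value there, as did the bright members Mt1 and Gstm1. Of all 8 arrays, this one had the most detected probes (15042) and the largest scaling factor (1.09). This array also had a summed signal of 41697 for 4 choroid plexus markers, against 3056 to 4917 on the other cKO arrays and 2257 to 10255 on the cCT arrays. Without cKO replicate 4 the median log2 fold change of the 34 genes was 0.12 in place of 0.06, and Xdh still passed at a log2 fold change of 1.01.

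**Figure D4:**
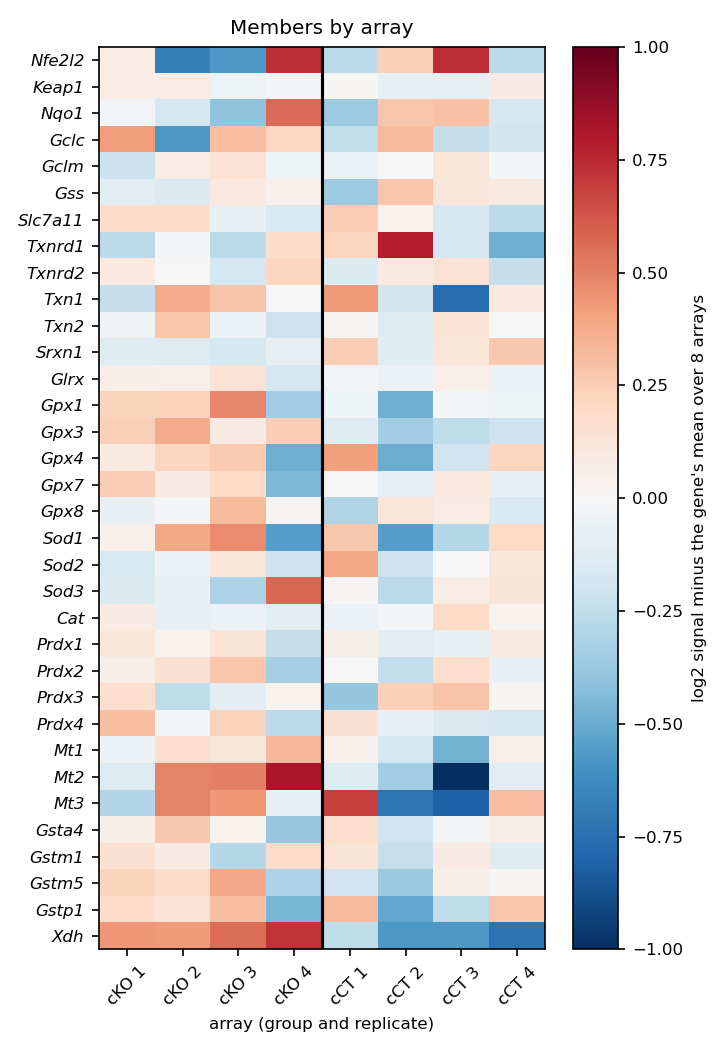
Log2 signal of the 34 genes (rows) on each array (columns, cKO left of the black line and cCT right) minus the gene's mean over the 8 arrays, from blue (-1) to red (1). Xdh is positive on all 4 cKO arrays and negative on all 4 cCT arrays, and the column of cKO replicate 4 holds low values for Sod1, Gpx1, Gpx4 and Gstp1.

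The rest of the pathway was read from a list of 82 further genes, of which 75 had a probe and 61 were tested. Of these 61, 1 was higher in cKO mice (Txnip) and 0 were lower, beside 0.777% and 0.0288% of all genes. Before adjustment, at p under 0.05, 6 were higher and 1, Mt4, was lower, beside 7.19% and 3.02% of all genes. A log2 fold change above 0 was found in 43 of 61 (median 0.09), beside 53.4% of all genes. In 5 genes every cKO array lay above every cCT array, and in 0 every one lay below, beside 4.29% and 2.03% of all genes.

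Txnip encodes the thioredoxin-interacting protein, which binds reduced thioredoxin and restrains glucose uptake, and whose transcription follows glucose metabolites. Its log2 signal (ILMN_3112873) was 10.82, 10.75, 10.88 and 10.80 in cKO replicates 1 to 4, against 10.14, 10.11, 9.73 and 9.85 in cCT replicates 1 to 4. The cKO arrays lay within a narrow band above all cCT arrays. The log2 fold change was 0.85 (SE 0.13), the adjusted p was 0.0195 from limma and the two-sided exact permutation p was 0.0286. The call was lost without any 1 of 5 arrays, with log2 fold changes of 0.78 (without cCT replicate 3), 0.82 (without cCT replicate 4), 0.85, 0.87 and 0.83 (without cKO replicates 1, 2 and 3), and its adjusted p was 0.0058 to 0.160 over all alternatives.

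The other genes of this list named here were chosen after their values were seen. Hmox1, heme oxygenase, a target of both Nrf2 and Bach1 that microglia and macrophages also express, had a log2 signal of 8.02, 8.03, 8.31 and 7.50 in cKO replicates 1 to 4, against 6.61, 6.9997, 7.33 and 7.34 in cCT replicates 1 to 4. The groups did not overlap, and the log2 fold change of 0.90 (SE 0.22) had an adjusted p of 0.144 from limma. Without cKO replicate 4, which lay nearest to the cCT arrays, Hmox1 passed. Leaving out the nearest array widens the difference in itself, so that pass adds no support. Of the alternatives that kept the adjustment, only array weights also gave a pass. The microglia and macrophage sum was also lowest in that array among the cKO arrays, and the part of these cells in the Hmox1 values was not tested.

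Akr1b8, an aldo-keto reductase of a family with known Nrf2 targets, had a log2 signal of 6.70, 6.95, 6.75 and 7.37 in cKO replicates 1 to 4, against 6.21, 6.42, 5.67 and 5.77 in cCT replicates 1 to 4. The groups did not overlap, at a dim signal, with a log2 fold change of 0.93 (SE 0.21, adjusted p = 0.117 from limma). Other genes of the list that are linked to Nrf2 lay on both sides of 0 and had no call. Mafg had -0.31, Taldo1 -0.18, Me1 -0.15, Osgin1 -0.12 and Slc3a2 -0.02, while Sqstm1 had 0.08, Cbr3 0.25, Ephx1 0.25 and Gsta3 0.27. Pon2, a membrane lactonase, and Msrb1, a methionine sulfoxide reductase, did not overlap between the groups either, with log2 fold changes of 0.25 and 0.19 (adjusted p = 0.534 and 0.658 from limma). Slc30a1, a zinc exporter that responds to the same metal-sensing factor as Mt1 and Mt2, had 0.44 (adjusted p = 0.376 from limma), with overlap.

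**Figure D5:**
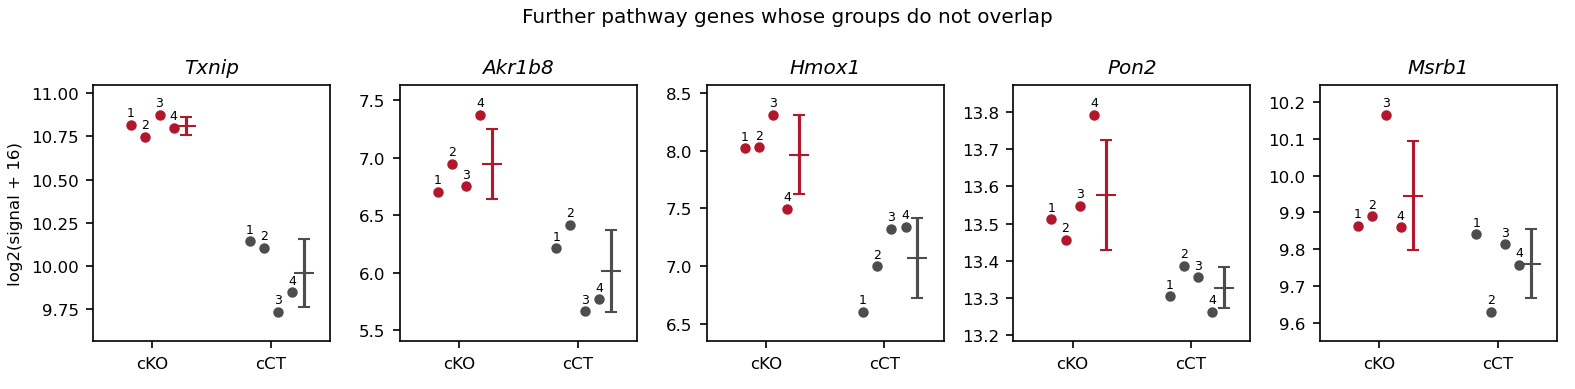
Log2(signal + 16) (vertical axis, a separate range in each panel) of Txnip, Akr1b8, Hmox1, Pon2 and Msrb1 on each array, with cKO arrays left and cCT arrays right, replicate numbers above the points, and the mean ± SD beside them. In each panel all 4 cKO points lie above all 4 cCT points, and only Txnip passed the test.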

How the data were processed

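Brainstem RNA was measured on Illumina MouseRef-8 v2 arrays, 8 in all on 1 beadchip. The authors deposited each probe's unnormalized signal intensity, its detection p-value and its bead number, and a background-subtracted table of intensities average-normalized in GenomeStudio (version not given in the sources used here). Unnormalized intensities were background-corrected with normexp in limma 3.58.1 (R 4.3.3, statmod 1.5.0), using the detection p-values to set the background. Arrays were scaled to equal means (factors 0.876 to 1.09), 16 was added and log2 taken. Of 25697 probes, 15225 were detected (p under 0.05) on 3 or more arrays and were tested with lmFit and eBayes, with Benjamini-Hochberg adjustment over all of them. Single values were also tested by exact permutation over 70 arrangements. Illumina's custom error model was not repeated. The scripts were tested on simulated data.

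The 37 genes and all lists were chosen with earlier results of these data known. Per-array values are given for members past an unadjusted p of 0.05 or with groups that do not overlap, and for Nfe2l2, Keap1, Nqo1, Sod1, Sod2, Slc7a11 and the metallothioneins; Gpx1 and Srxn1 were added after their values were seen. The 8 arrays limit the precision, and p-values measure the spread between single mice. Alternatives changed 1 choice at a time: the scaling (quantile), the background (none removed), the offset (1 or 50), the table (the deposited normalized one), the detection filter (none or strict), the moderation (trend and robust), weights per array, a block for the replicate number, the threshold (p before adjustment), the summary of a gene (mean of its probes) and the arrays (each left out). Added after the data were seen was a covariate, an index of how bright probes of the same gene move apart between arrays.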

Additional observations from a re-analysis of the deposited data

Results flagged for a closer look

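In 2 of 68 groups of 4 arrays tested, 1 array stood apart from the other 3 by more than the 95% limit of Dixon's ratio. About 5% of groups do so by chance, which would be 3.4 groups here. For Gclc, cCT replicate 2 had a log2 signal of 7.41, while the next highest cCT array had 6.91. For Gpx1, cCT replicate 2 had 13.60, while the next lowest cCT array had 14.04.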

How the results depend on the processing

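Xdh kept its direction under all 21 alternatives (log2 fold change 0.71, without background correction, to 1.16) and its call under 19 of them. With the replicate number as a block, 0 member genes, 0 member probes and 0 further pathway genes were higher, with adjusted p = 0.116 for Xdh and 0.160 for Txnip from limma. The labels do not say that the numbers pair animals, so the main test did not read them as pairs. The deviations of same-numbered arrays from their group means had correlations of -0.19, -0.26, -0.24 and -0.20, which do not show whether the animals were paired. At an unadjusted p under 0.05 the counts were 3 member genes, 4 member probes and 6 further pathway genes higher, and 1 further pathway gene lower. With array weights, 3 further pathway genes were higher (Akr1b8, Hmox1 and Txnip). With 1 array left out, 0 to 1 member genes and 0 to 1 member probes were higher (0 without cCT replicate 3), as were 0 to 2 further pathway genes (0 without cKO replicates 1, 2 or 3 or cCT replicates 3 or 4, and 2, Hmox1 and Txnip, without cKO replicate 4). The median of the 34 genes was then 0.0248 to 0.12, Nqo1 -0.22 to 0.11 and Slc7a11 -0.0059 to 0.16. Without a call, Nfe2l2 then ranged over -0.50 (without cKO replicate 4) to -0.013 (without cCT replicate 3), Mt3 over 0.046 (without cCT replicate 3) to 0.54 (without cCT replicate 1), Sod1 over 0.025 (without cCT replicate 2) to 0.39 (without cKO replicate 4), Sod2 over -0.24 (without cCT replicate 2) to -0.046 (without cCT replicate 1), Mt1 over 0.16 (without cCT replicate 3) to 0.34 (without cKO replicate 1) and Keap1 over 0.014 (without cCT replicate 2) to 0.072 (without cCT replicate 4). With the index of probe divergence as a covariate, 0 further pathway genes were higher, the median of the 34 genes was 0.00705, and these genes changed sign with no call: Nfe2l2 (0.24), Nqo1 (0.29), Sod1 (-0.17) and Mt3 (-0.044). The cause of these changes was not tested. No member was called lower under any alternative. Mt1 near the top of the measured range and the dim signals of Nfe2l2 and Nqo1 limit what their probes can show.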
